A study of Mus musculus with 9 samples.

Results

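The 10 immediate early genes Fos, Fosb, Jun, Junb, Egr1, Atf3, Ier2, Dusp1, Nr4a1 and Zfp36 were followed in mouse lung by RNA sequencing. They were picked by gene symbol, and each matched 1 row among the 45706 genes of the expression table. All 10 were among the 13248 genes tested, those with 1 TPM or more in 3 or more lungs. TPM is an abundance corrected for transcript length and scaled to the same sum in each library, so levels can be set side by side between genes. The lungs came from female BALB/c mice, 4 to 6 weeks old, with 4T1 mammary carcinoma cells injected in the right flank. There were 3 lungs from mice given nanocapsules of an anti-PD1 antibody at 150 µg per mouse, 3 from mice given the anti-PD1 antibody itself, and 3 from mice given phosphate-buffered saline (PBS). Each agent was given on days 7 and 14 after engraftment, and lungs were taken on day 21. The labels do not make clear whether the same dose holds for the free antibody. All 9 samples came from mice with the tumour, and the labels do not say that each came from a separate mouse. No lung from a mouse without a tumour or without an injection was analysed here.

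Immediate early genes are switched on within minutes of a stimulus, by kinases and transcription factors that are already in the cell, and need no newly made protein. Fos, Fosb, Jun, Junb and Atf3 encode leucine zipper proteins that pair into the AP-1 and ATF family of transcription factors. Egr1 encodes a zinc finger activator and Nr4a1 an orphan nuclear receptor. Ier2 encodes a small nuclear protein, Dusp1 a phosphatase that switches off MAP kinases, and Zfp36 (tristetraprolin) a protein that speeds the decay of messengers with AU-rich elements. Neutrophils, macrophages, endothelium and epithelium of the lung can all express these genes, and handling of tissue also induces them. How long the lungs were held before RNA was extracted is not given in the sources used here.

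The labels give only the group and a number for each lung, and the p-values speak only of the scatter among these 9 libraries, which may be technical. Depth cannot be read from TPM and was unknown. The number of genes at 1 TPM or more was 12194 to 13407 per lung, rank correlations between lungs were 0.950 to 0.982, and no 2 libraries were identical. No marker of alveolar type 2 cells, endothelium, alveolar macrophages or neutrophils was at 0 in all lungs of a group. The summed TPM of 6 neutrophil markers was 158470 to 179300 in nanocapsule lungs, 105480 to 122530 in anti-PD1 lungs and 123910 to 172220 in PBS lungs. In whole lung, fewer cells of a type and less RNA per cell cannot be told apart.

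The stretches upstream of 5 genes are shown because Fosb, Jun and Atf3 stood furthest below PBS in the nanocapsule lungs, while Fos and Dusp1 stood near it. Each is the 250 bases before the RefSeq start on GRCm38.p6, written in the direction of transcription. Capitals mark matches, on either strand, to the half-site TGACG of the cAMP response element, to TGACNTCA, which ATF and Jun proteins bind, and to the EGR element GCGNGGGCG.
Fos, chr12:85473640-85473889, plus strand: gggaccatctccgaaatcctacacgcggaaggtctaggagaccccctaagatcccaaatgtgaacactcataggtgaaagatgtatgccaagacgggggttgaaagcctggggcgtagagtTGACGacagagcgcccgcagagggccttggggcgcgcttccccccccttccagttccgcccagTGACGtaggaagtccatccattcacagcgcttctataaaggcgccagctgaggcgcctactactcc
Fosb, chr7:19310046-19310295, minus strand: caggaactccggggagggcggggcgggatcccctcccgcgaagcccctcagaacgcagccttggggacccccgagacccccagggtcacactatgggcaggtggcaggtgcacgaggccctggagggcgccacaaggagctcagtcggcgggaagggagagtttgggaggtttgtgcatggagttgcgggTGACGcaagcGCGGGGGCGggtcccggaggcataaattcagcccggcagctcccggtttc
Jun, chr4:95052223-95052472, minus strand: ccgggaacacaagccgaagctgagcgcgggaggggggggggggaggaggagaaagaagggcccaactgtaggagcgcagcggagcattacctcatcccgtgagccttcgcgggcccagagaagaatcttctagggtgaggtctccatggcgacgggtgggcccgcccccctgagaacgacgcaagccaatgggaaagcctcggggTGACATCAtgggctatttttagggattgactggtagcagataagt
Atf3, chr1:191183334-191183583, minus strand: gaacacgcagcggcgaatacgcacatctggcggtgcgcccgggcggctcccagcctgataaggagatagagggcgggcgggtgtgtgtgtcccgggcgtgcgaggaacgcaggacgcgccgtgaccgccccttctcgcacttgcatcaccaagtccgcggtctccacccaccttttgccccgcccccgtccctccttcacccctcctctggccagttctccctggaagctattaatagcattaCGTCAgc
Dusp1, chr17:26508473-26508722, minus strand: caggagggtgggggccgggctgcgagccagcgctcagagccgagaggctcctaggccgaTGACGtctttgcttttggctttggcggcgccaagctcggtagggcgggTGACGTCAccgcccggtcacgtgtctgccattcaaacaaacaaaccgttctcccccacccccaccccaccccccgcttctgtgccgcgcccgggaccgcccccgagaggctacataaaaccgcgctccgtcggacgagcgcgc

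RefSeq windows were matched for 8 of the 10 genes, all but Ier2 and Egr1. The half-site TGACG was found upstream of 6 of the 8, namely Fos, Fosb, Junb, Atf3, Dusp1 and Nr4a1, and in 17.7% of 32817 windows of the same length over all genes. The full element TGACGTCA was found only upstream of Dusp1 among the 8, in a match that overlaps 2 half-sites and also fits TGACNTCA, and in 1.55% of all windows. TGACNTCA, added after the sequences were seen, was found upstream of Jun and Dusp1. It was in 7.49% of all windows, a share that cannot test matches already seen. The EGR element was found upstream of Fosb, Nr4a1 and Zfp36, and in 4.7% of all windows. The CArG box, to which serum response factor binds, was found upstream of Zfp36 alone among the 8, and in 1.47% of all windows. Bases further upstream than these windows were not searched, for this or any other motif. The AP-1 element TGANTCA was found upstream of none of the 8, and in 6.75% of all windows. TATAA, searched only in the direction of transcription, was found upstream of Fos alone, and in 16.0% of all windows. The matches describe these letters in these windows and are no evidence of binding in the lung.

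**Figure D1:**
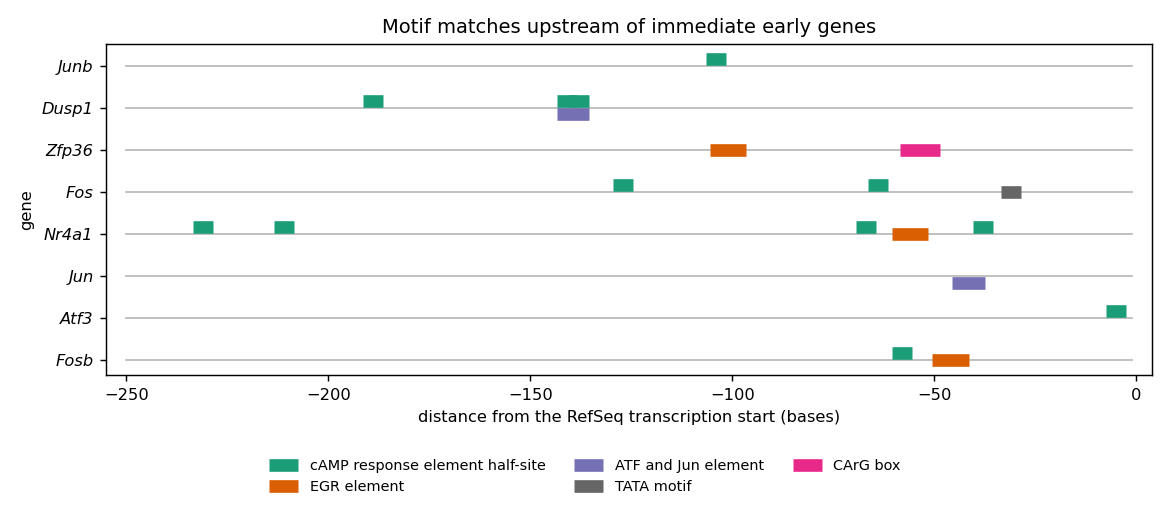
Motif matches in the 250 bases upstream of 8 immediate early genes, with distance from the RefSeq start in bases on the x axis and a grey line for each gene. Coloured blocks mark the matches: Nr4a1 has 4 half-sites, the full element and its half-sites overlap in Dusp1, and Jun has 1 match to TGACNTCA.

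The 10 genes were abundant in every lung. Together they took 1.16%, 1.25% and 1.38% of all TPM after nanocapsules, 1.23%, 1.31% and 1.08% after anti-PD1, and 1.30%, 1.53% and 1.25% after PBS. These shares overlap between the groups. Junb was the highest, at 3059 ± 379 TPM over the 9 lungs (SD, n = 9), and ranked between 24 and 48 among all genes. Dusp1 averaged 2559 TPM, Zfp36 2515 TPM and Fos 2216 TPM. Junb was above Dusp1 in 7 of 9 lungs and Dusp1 above Zfp36 in 5 of 9, so the order of these 3 was not the same in every lung. Zfp36 was above Fos in all 9. Ier2, at 1199 TPM, and Egr1, at 556 TPM, each had a range separate from the genes next to it in order. Nr4a1 averaged 249 TPM and Jun 213 TPM, and Nr4a1 was the higher in 6 of 9 lungs. Atf3, at 117 TPM, lay above Fosb, at 77.6 TPM, in all 9 lungs, although their ranges overlapped. Even Fosb, the lowest, ranked between 1126 and 2502.

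**Figure D2:**
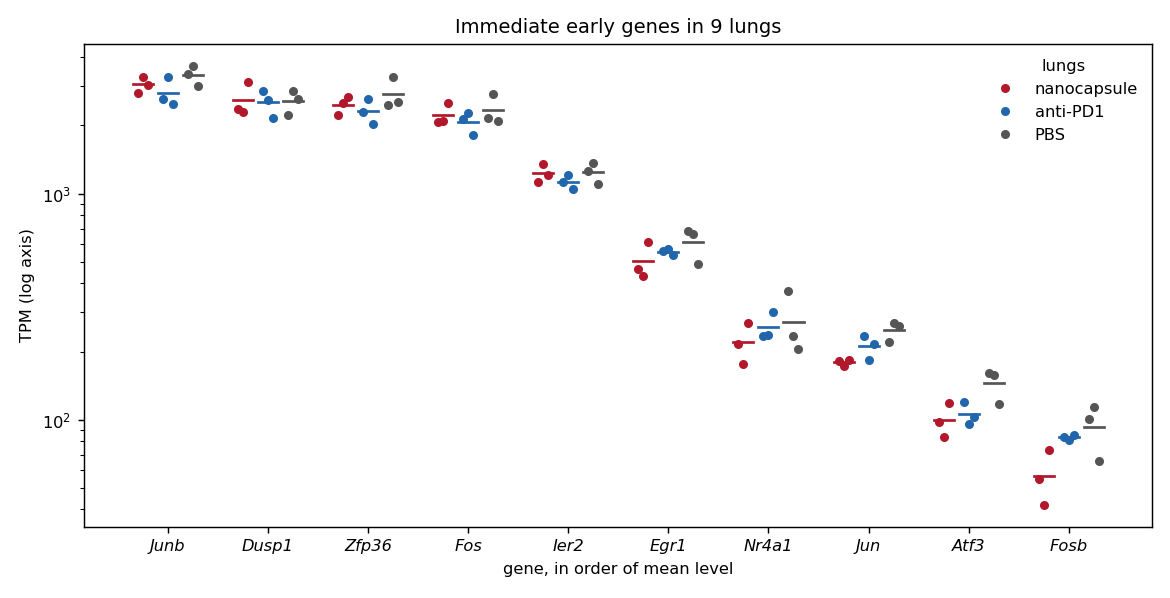
TPM of the 10 immediate early genes (log axis) in each of 9 lungs, with genes in order of mean level and a short line at each group mean. Junb is highest at 3059 TPM and Fosb lowest at 77.6 TPM over the 9 lungs, and the 3 nanocapsule lungs lie below the 3 PBS lungs for Jun alone.

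The lungs did not fall into their groups by these genes. PBS lung 2 had the highest level of Junb, Zfp36, Fos, Ier2, Jun and Fosb, and PBS lung 1 that of Egr1, Nr4a1 and Atf3. Nanocapsule lung 3 had the highest Dusp1. The lowest lung was anti-PD1 lung 3 for the 5 most abundant genes, Junb, Dusp1, Zfp36, Fos and Ier2, and nanocapsule lung 2 for the other 5. Averaged over the 10 genes, the level relative to each gene's mean on the log2(TPM + 1) scale was -0.19, -0.23 and 0.07 after nanocapsules. It was 0.00, -0.01 and -0.10 after anti-PD1, and 0.19, 0.29 and -0.04 after PBS. Nanocapsule lung 3 thus lay above PBS lung 3, and every pair of groups overlapped. The range over the 9 lungs, highest over lowest, was 1.31-fold for Ier2, 1.44-fold for Dusp1, 1.47-fold for Junb and 1.51-fold for Fos. It was 1.91-fold for Atf3, 2.10-fold for Nr4a1 and 2.70-fold for Fosb. The median standard error of a difference was 0.15 over the 10 genes and 0.16 over all tested genes, both in log2.

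**Figure D3:**
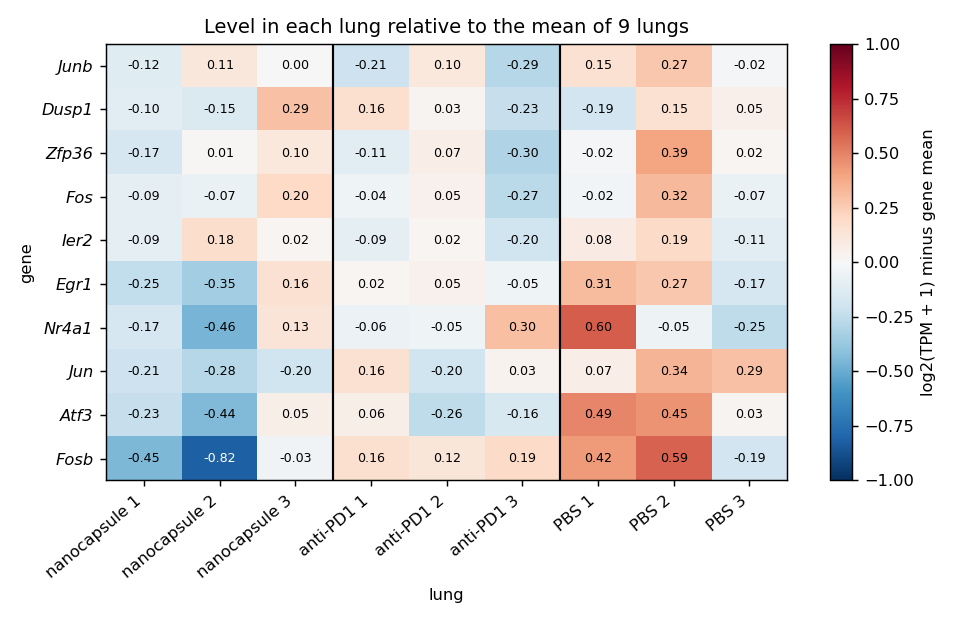
Level of each gene in each lung, as log2(TPM + 1) minus the gene's mean over 9 lungs, with red above and blue below that mean and black lines between groups. PBS lung 2 is above the mean for 9 of 10 genes, nanocapsule lung 1 is below it for all 10, and anti-PD1 lung 3 and nanocapsule lung 2 share the lowest values.

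The first comparison set the nanocapsule lungs against the PBS lungs. No immediate early gene passed the test, and the values of Fosb, Atf3 and Jun stood furthest below PBS. Limma (two-sided, Benjamini-Hochberg adjustment over all tested genes, a call at adjusted p under 0.05) called 0 of the 10, against 0.00755% of all tested genes. At an unadjusted p under 0.05 there were 3 of 10, all lower, against 8.92% of all tested genes in that direction and 10.1% in either. By value 9 of 10 were lower, against 71.2% of all tested genes, with a median log2 difference of -0.21 for the 10 and -0.11 for all tested genes. Differences are on the log2(TPM + 1) scale, which understates changes of genes with low TPM. The median over the 10 was -0.32 without PBS lung 3. It was -0.14 without PBS lung 2, where that of all tested genes was -0.15, and -0.085 with median-of-ratios scaling. In both of these settings 7 of 10 were lower.

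Jun, a core AP-1 subunit (GRCm38 chromosome 4, 95049034 to 95052222, minus strand), was at 182, 173 and 183 TPM after nanocapsules and 221, 267 and 258 TPM after PBS. No nanocapsule lung reached the lowest PBS lung, as was so for 11.9% of all tested genes (2.4% lay wholly higher), and Jun was the 1 member of which this was true. The log2 difference was -0.46 (SE 0.11, limma adjusted p = 0.338), with a 95% interval of 0.61 to 0.86 for the ratio. Atf3, a stress-induced ATF family repressor on chromosome 1, was at 97.2, 84.1 and 119 TPM after nanocapsules and 160.3, 157 and 117 TPM after PBS. Nanocapsule lung 3 lay just above PBS lung 3, and the log2 difference was -0.53 (SE 0.16, limma adjusted p = 0.365). Fosb, a partner of Jun proteins (chromosome 7, 19302696 to 19310051, minus strand), was at 54.4, 41.9 and 73.0 TPM after nanocapsules and 100.5, 113 and 65.3 TPM after PBS. Here too nanocapsule lung 3 was above PBS lung 3, and the log2 difference was -0.71 (SE 0.22, limma adjusted p = 0.365). Its 95% interval, a ratio of 0.44 to 0.86, was the 1 of the 10 that reached outside 2-fold.

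The most abundant members stood close to PBS. Fos, the founding AP-1 gene on chromosome 12, was at 2069, 2103 and 2527 TPM after nanocapsules and 2164, 2752 and 2099 TPM after PBS. The groups overlapped, with a ratio between 0.77 and 1.196 by the 95% interval. Dusp1, on chromosome 17, was at 2363, 2296 and 3106 TPM after nanocapsules and 2228, 2829 and 2626 TPM after PBS. Its log2 difference was 0.01 (SE 0.16), the one value above 0, and its interval ran from 0.79 to 1.28. Ier2, on chromosome 8, was at 1123, 1351 and 1210.4 TPM after nanocapsules and 1261, 1363 and 1105 TPM after PBS. Its interval, 0.83 to 1.18, was the narrowest of these 3. Junb averaged 3038 ± 247 TPM after nanocapsules and 3345 ± 339 TPM after PBS, and Zfp36 2471 ± 234 TPM after nanocapsules and 2757 ± 448 TPM after PBS (SD, n = 3). Their intervals were 0.74 to 1.12 and 0.72 to 1.13.

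Egr1 and Nr4a1 lay between. Egr1, on chromosome 18, was at 464, 432 and 613 TPM after nanocapsules and 684, 665 and 489 TPM after PBS, and the fitted change was -0.29 in log2 (SE 0.16, limma adjusted p = 0.553). As with Atf3 and Fosb, the third lung of each group crossed over. Nr4a1, on chromosome 15, was at 217, 177 and 266 TPM after nanocapsules and 370.2, 235 and 204 TPM after PBS. PBS lung 1 alone was above all nanocapsule lungs, and the log2 difference was -0.27 (SE 0.22, limma adjusted p = 0.683).

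**Figure D4:**
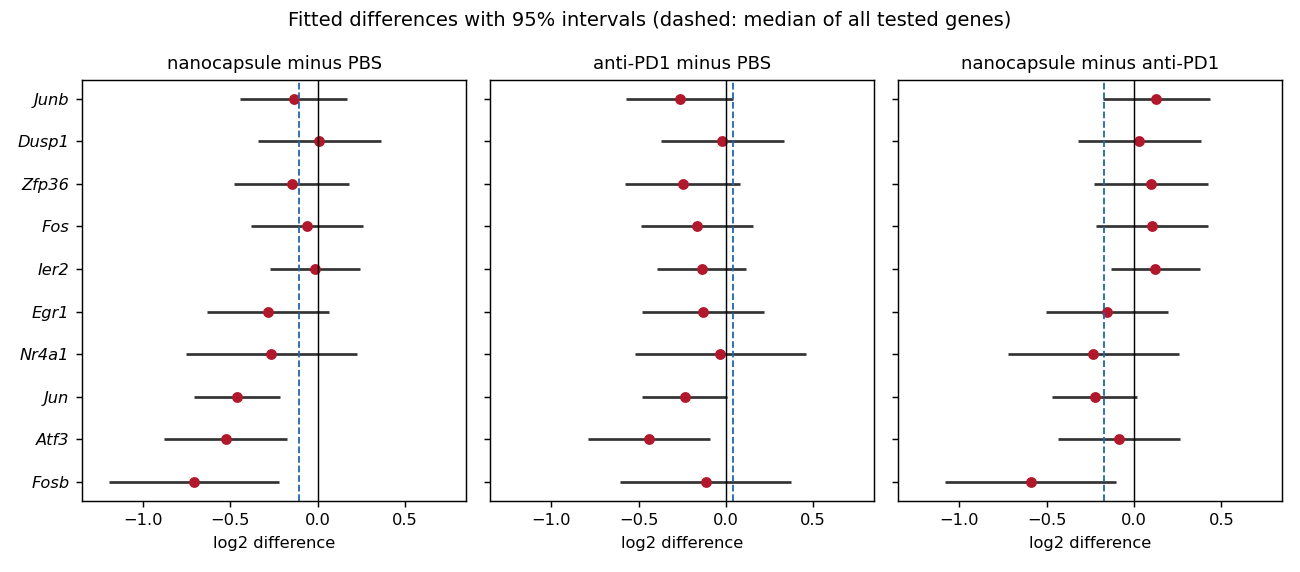
Fitted log2 differences (points) with 95% intervals (lines) for the 10 genes in 3 comparisons, with a solid line at 0 and a dashed line at the median of all tested genes. In the nanocapsule comparison with PBS, the intervals of Fosb, Atf3 and Jun lie below 0 before adjustment for multiple tests, and Dusp1 sits at 0.01.

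The second comparison set the anti-PD1 lungs against the same PBS lungs, so both comparisons share their PBS values. Limma again called 0 of the 10, against 0.00755% of all tested genes. All 10 were lower by value, against 43.1% of all tested genes, with a median log2 difference of -0.15 for the 10 and 0.04 for all tested genes. Without PBS lung 2 the median of the 10 was -0.09 and 8 of 10 were lower, and without PBS lung 3 the median was -0.26. At an unadjusted p under 0.05 there was 1 member, Atf3, against 8.06% of all tested genes in that direction and 16.5% in either, and there were 0 without PBS lung 2. Atf3 was at 119, 95.6 and 102 TPM after anti-PD1 and 160.3, 157 and 117 TPM after PBS. Anti-PD1 lung 1 just reached above PBS lung 3, and the log2 difference was -0.44 (SE 0.16, limma adjusted p = 0.235). The groups overlapped for each of the 10 genes, against 13.4% of all tested genes that lay wholly lower and 12.1% wholly higher.

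Among the AP-1 genes, Fos was at 2135, 2272 and 1823 TPM after anti-PD1, which was inside the PBS values except for anti-PD1 lung 3. Junb was at 2629, 3265 and 2492 TPM after anti-PD1 and 3372, 3669 and 2992 TPM after PBS, a fitted change of -0.26 in log2 (SE 0.14, limma adjusted p = 0.359). Anti-PD1 lung 2 lay above PBS lung 3. Jun was at 235, 183 and 215 TPM after anti-PD1, with a log2 difference from PBS of -0.24 (SE 0.11, limma adjusted p = 0.312). Fosb was even within the anti-PD1 group, at 83.8, 81.1 and 85.6 TPM, and all 3 values fell inside the PBS range. Its log2 difference was -0.12 (SE 0.22).

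The genes outside AP-1 were not called either. Zfp36 was at 2305, 2614 and 2027 TPM after anti-PD1 and 2465, 3273 and 2533 TPM after PBS (log2 difference -0.25, SE 0.15). Ier2 was at 1125, 1213 and 1042 TPM after anti-PD1, and 1 of them was below all PBS lungs by value. Egr1 was at 559, 568 and 533 TPM and Nr4a1 at 234, 236 and 300.5 TPM after anti-PD1, all inside their PBS ranges. Dusp1 was at 2833, 2588 and 2162 TPM, on both sides of its PBS range. Over the 10 genes the intervals ran from a ratio of 0.58 (Atf3) to 1.37 (Nr4a1), so each lay within 2-fold, and 9 of the 10 contained 1.

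Nanocapsule lungs were then set against anti-PD1 lungs. Limma called 0 of the 10, against 0.106% of all tested genes. By value 5 were lower, against 70.8% of all tested genes, and 5 higher, with a median of -0.03 for the 10 and -0.17 for all tested genes. Median-of-ratios scaling sets the median of all genes near 0 by construction, and with it the median of the 10 was 0.17 and 7 were higher. At an unadjusted p under 0.05 there was 1 member, Fosb, against 21% of all tested genes in that direction and 27.7% in either. Fosb was at 54.4, 41.9 and 73.0 TPM after nanocapsules and 83.8, 81.1 and 85.6 TPM after anti-PD1. All 3 nanocapsule lungs lay lower, as in 24.6% of all tested genes (8.73% lay wholly higher), and the log2 difference was -0.59 (SE 0.22, limma adjusted p = 0.131). Without nanocapsule lung 2 it was -0.40 and the adjusted p was 0.363. Fos, Junb, Ier2, Zfp36 and Dusp1 had log2 differences of 0.10, 0.13, 0.12, 0.10 and 0.03, with SEs of 0.12 to 0.16, and only that of Ier2 exceeded its SE. Jun, Nr4a1, Egr1 and Atf3 had log2 differences of -0.23, -0.23, -0.15 and -0.09.

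Ratios between 2 genes of 1 lung do not depend on how a library is scaled. Of 12 pairs computed, 4 are shown, chosen after the values were seen and with no test. Values of Fosb and Atf3 over Junb are given beside them. There were 2.63, 1.99 and 2.89 Fosb for every 100 Fos transcripts after nanocapsules, 3.92, 3.57 and 4.69 after anti-PD1, and 4.64, 4.11 and 3.11 after PBS. The 3 nanocapsule lungs were the lowest of the 9 by this ratio, but not when Junb was the denominator. For every 100 Junb there were 1.95, 1.28 and 2.41 Fosb after nanocapsules and 3.19, 2.48 and 3.43 after anti-PD1. After PBS there were 2.98, 3.08 and 2.18, so nanocapsule lung 3 lay above PBS lung 3. For every 100 Fos there were 4.70, 4.00 and 4.70 Atf3 after nanocapsules, 5.58, 4.21 and 5.60 after anti-PD1, and 7.41, 5.70 and 5.56 after PBS. The nanocapsule values lay below the PBS values and overlapped the anti-PD1 values. For every 100 Junb there were 6.53, 5.26 and 6.05 Jun after nanocapsules, 8.93, 5.61 and 8.64 after anti-PD1, and 6.54, 7.27 and 8.63 after PBS. Nanocapsule lung 1 was level with PBS lung 1 here. Ier2 for every 100 Fos averaged 55.5 ± 8.25 after nanocapsules, 54.4 ± 2.39 after anti-PD1 and 53.5 ± 4.46 after PBS (SD, n = 3).

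**Figure D5:**
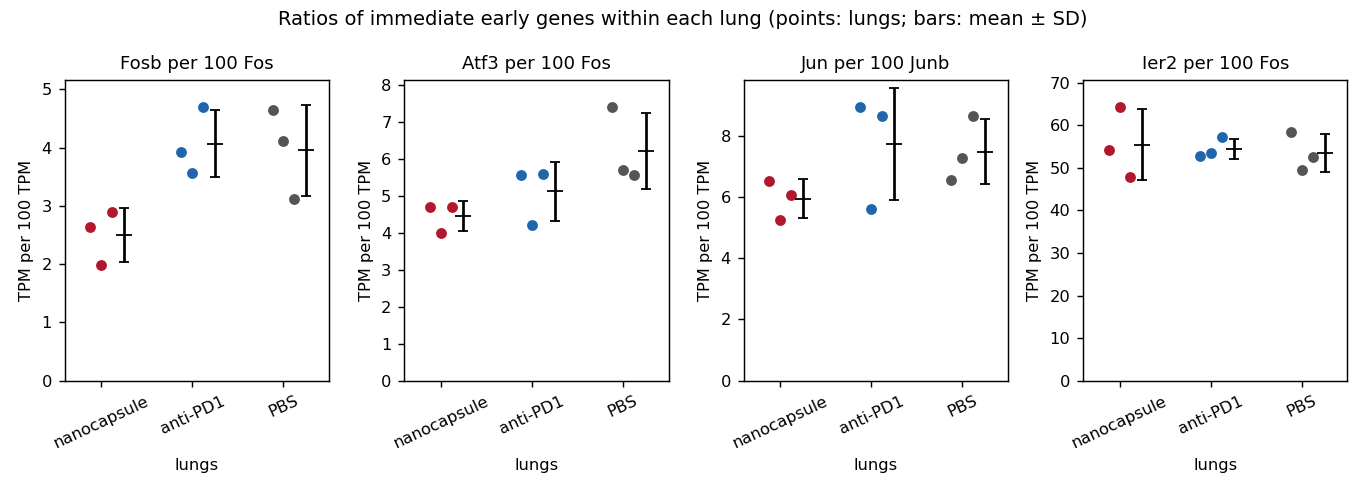
TPM of 1 gene for every 100 TPM of another in the same lung, with a coloured point for each of 3 lungs a group and black bars for the mean ± SD. Fosb for every 100 Fos is 1.99 to 2.89 in nanocapsule lungs and 3.11 to 4.69 in the other lungs, while Ier2 for every 100 Fos overlaps across all groups. Fosb for every 100 Junb, not drawn, overlaps between nanocapsule and PBS lungs.

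Other genes of the same pathways were taken from lists set by function. Of 13 further AP-1 family genes, all tested, limma called 0 in each comparison. Against PBS, 10 were lower by value in the nanocapsule lungs and 10 in the anti-PD1 lungs, against 71.2% and 43.1% of all tested genes. The medians were -0.19 and -0.11. Of the 13, 4 and 6 were at an unadjusted p under 0.05, against 10.1% and 16.5% of all tested genes. Between nanocapsule and anti-PD1 lungs 2 were, against 27.7%. Fosl2, a late partner in AP-1, was at 93.6 ± 18.3 TPM after nanocapsules, 90.4 ± 5.11 TPM after anti-PD1 and 126 ± 20.3 TPM after PBS (SD, n = 3). Jdp2, a repressor of AP-1, was at 45.8 ± 3.75, 39.99 ± 2.42 and 52.6 ± 7.12 TPM in the same groups, and Atf4, of the integrated stress response, at 111 ± 4.85, 128 ± 3.60 and 133 ± 3.94 TPM (SD, n = 3). Of 49 other immediate early genes tested, limma called 0 in each comparison. By value 42 were lower in the nanocapsule lungs than in PBS lungs, against 71.2% of all tested genes, with a median of -0.21. Of the 49, 11 were at an unadjusted p under 0.05, against 10.1%. In the anti-PD1 lungs 32 were lower than in PBS lungs, against 43.1% of all tested genes, with a median of -0.15. There 17 were at an unadjusted p under 0.05, 15 of them lower, against 16.5% of all tested genes in either direction. Between nanocapsule and anti-PD1 lungs, 15 of the 49 were at an unadjusted p under 0.05, 10 of them lower, which is near the 27.7% of all tested genes. Ier5 was at 280 ± 18.3 TPM after nanocapsules, 237 ± 24.97 TPM after anti-PD1 and 321 ± 25.5 TPM after PBS (SD, n = 3), with limma adjusted p = 0.531 and 0.211 against PBS. Id3, an inhibitor of helix-loop-helix factors, was at 21.3 ± 1.69, 42.6 ± 9.29 and 34.0 ± 8.12 TPM, and Plk3, a stress-responsive kinase, at 47.2 ± 10.9, 75.8 ± 2.0 and 67.7 ± 11.9 TPM in the same order (SD, n = 3). Nanocapsule against anti-PD1, these 2 had log2 differences of -0.95 and -0.69 (limma adjusted p = 0.0582 and 0.0723).

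Among relatives and regulators of the members, limma called 0 in each list and comparison. The counts below stand beside shares over all tested genes. By value 71.2% of these were lower in nanocapsule than in PBS lungs, and 43.1% in anti-PD1 than in PBS lungs. At an unadjusted p under 0.05 the shares were 10.1% and 16.5% in these 2 comparisons. Between nanocapsule and anti-PD1 lungs, 2 of the EGR and NR4A genes, 5 of the phosphatases and inhibitors and 0 of the decay genes were at an unadjusted p under 0.05, against 27.7% of all tested genes. Of 6 tested genes of the EGR and NR4A families and their corepressors, 6 were lower by value in nanocapsule than in PBS lungs and 4 in anti-PD1 than in PBS lungs, with 1 and 0 at an unadjusted p under 0.05. Nab2, a corepressor of EGR proteins, was at 9.12 ± 1.52 TPM after nanocapsules, 16.3 ± 2.33 TPM after anti-PD1 and 13.7 ± 3.85 TPM after PBS (SD, n = 3). Egr2 was at 38.2 ± 14.0, 65.2 ± 13.8 and 44.2 ± 20.8 TPM in that order (SD, n = 3), an order of groups unlike that of Egr1. Of 14 phosphatases and feedback inhibitors of MAP kinases, 12 were lower by value in the nanocapsule and 6 in the anti-PD1 lungs than in PBS lungs, with 1 and 2 at an unadjusted p under 0.05. Dusp2, a nuclear relative of Dusp1, was at 58.6 ± 7.59, 103 ± 18.4 and 87.8 ± 31.2 TPM (SD, n = 3). Of 9 genes of the Zfp36 family and AU-rich messenger decay, 6 and 7 were lower by value, with 3 and 1 at an unadjusted p under 0.05. Zfp36l1, which shares the messenger-binding zinc fingers of Zfp36, was at 159 ± 25.2, 161 ± 17.2 and 213 ± 8.03 TPM (SD, n = 3). Its log2 differences from PBS were -0.43 and -0.40 (limma adjusted p = 0.365 and 0.214).

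Some other measures also differed between the groups. The mean log2(TPM + 1) of 18 heat shock genes, relative to the mean over the 9 lungs, lay between -0.43 and -0.29 after nanocapsules, -0.16 and 0.16 after anti-PD1, and 0.18 and 0.47 after PBS. Within the PBS lungs this mean was highest in lung 3 and lowest in lung 2, while Fosb was highest in lung 2 and lowest in lung 3. Single heat shock genes did not all follow their mean. Hspa1b was at 29.1, 53.5 and 39.4 TPM in PBS lungs 1, 2 and 3. Hspa1a and Dnajb1 were also highest in PBS lung 2, and Hsph1 and Hspa8 in PBS lung 3. Of the 18 heat shock genes, 17 were lower by value in nanocapsule than in PBS lungs, against 71.2% of all tested genes. In anti-PD1 lungs 11 of the 18 were lower than in PBS lungs, against 43.1%. Limma called 1 of the 18, Hspa1b, in both comparisons with PBS, against 0.00755% of all tested genes in each. Its limma adjusted p was 0.00623 for nanocapsule and 0.0445 for anti-PD1 lungs. The summed TPM of 3 B cell markers was 98.8 to 140.2 in nanocapsule lungs, 184 to 303 in anti-PD1 lungs and 178 to 322 in PBS lungs. That of 3 T cell markers was 100.3 to 137, 120.2 to 273 and 140.0 to 248 in the same groups. That of 3 mast cell markers was 12.3 to 14.0, 9.96 to 15.1 and 14.5 to 30.7 in the same groups, and none of these markers was at 0 in all lungs of a group. That of 5 endothelial markers, 28.2 to 65.5 in nanocapsule and 29.9 to 74.6 in PBS lungs, overlapped there and was higher in anti-PD1 lungs, at 91.7 to 171. In the anti-PD1 lungs, where all 10 genes were lower than in PBS lungs by value, the summed TPM of 4 alveolar type 2 markers was 1540 to 3916, against 419 to 1230 in PBS lungs. That of 4 alveolar macrophage markers was 2080 to 2657 in anti-PD1 lungs and 1334 to 2052 in PBS lungs. Both sums were wholly higher, and the neutrophil sum given above was wholly lower, in anti-PD1 than in PBS lungs. The neutrophil sums nearly met, at 122530 in the highest anti-PD1 lung and 123910 in the lowest PBS lung. Of the single markers in these lists, S100a9, Chil3 and Marco overlapped between the groups and the others did not. PBS lung 2, the highest for 6 of the 10 genes, had S100a8 and S100a9 at 16.7% of TPM and the mitochondrial genome at 2.37%, both inside the nanocapsule ranges of 15.5% to 17.5% and 2.22% to 3.30%. The part of these measures in the values of the 10 genes was not tested.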

How the data were processed

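The authors deposited gene-level TPM, with 1 column for each of the 9 samples and the same sum in every column. The deposited table is named for salmon, and per the submitters' processing notes the build was GRCm38 and DESeq2 was used, with no versions or roles. Filters are not given in the sources used here. Columns were matched to samples by library name. The main test was limma (version 3.58.1, run under R 4.3.3), applied to log2(TPM + 1) for genes that reached 1 TPM in 3 or more samples. It used an intensity trend and 1 spread for the 3 groups, with 6 residual degrees of freedom. Intervals are 95% intervals of this fit. With 3 lungs a group, the smallest p of an exact two-sided permutation test is 0.1. The fit was tested on simulated data. Positions come from GENCODE M21, and upstream sequences from RefSeq on GRCm38.p6. TGACNTCA was added to the motifs after the sequences were seen. The members and lists were chosen with earlier results of these data known. The rule for names took all 10 members, the 3 genes of each list with the smallest p in any comparison, of which some are printed, and the 5 genes most like the members. Alternatives were pseudocounts, filters, scalings, variance models, the 2 groups alone, a replicate block and the omission of each library.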

Additional observations from a re-analysis of the deposited data

How the results depend on the processing

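Limma called 0 of the 10 genes in each comparison under each of the alternatives run. The count of all called genes was unsteady. For nanocapsule against PBS it was 1, and 2 with a pseudocount of 0.1 or no trend, 0 with no filter or quantile normalization, 4 with median-of-ratios scaling, robust fitting or TPM without S100a8, S100a9 and the mitochondrial genome, 5 with the replicate block, and 0 to 4 with single libraries left out. For anti-PD1 against PBS it was 1, and 2 with a pseudocount of 5, 0 with a pseudocount of 0.1, no trend or any of the 3 scalings, and 0 to 3 with single libraries left out. For nanocapsule against anti-PD1 it was 14, and 3 with no filter, 182 with a filter of 5 TPM, 22 with median-of-ratios scaling, 75 with quantile normalization, 72 without S100a8, S100a9 and the mitochondrial genome, 476 with the 2 groups alone, 2 with no trend, 79 with robust fitting, 1095 with the replicate block, and 0 to 962 with single libraries left out, the highest without PBS lung 2. The causes were not tested. The median of the 10 in that comparison was 0.17 with median-of-ratios scaling.

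Signs turned only for differences that were not called. With median-of-ratios scaling, Fos (0.062) and Ier2 (0.11) turned against PBS in nanocapsule lungs, and Egr1 (0.045) and Atf3 (0.11) against anti-PD1. With quantile normalization, Nr4a1 (0.057) turned in anti-PD1 lungs, and Ier2 (0.048) and Dusp1 (-0.033) in nanocapsule lungs, against PBS. Ier2 was 0.0092 without S100a8, S100a9 and the mitochondrial genome. With single libraries left out, the values ran, for anti-PD1 against PBS, from -0.35 to 0.042 (Fosb), -0.12 to 0.087 (Dusp1) and -0.21 to 0.22 (Nr4a1), for nanocapsule against PBS from -0.15 to 0.061 (Fos), -0.098 to 0.053 (Ier2) and -0.13 to 0.088 (Dusp1), and for nanocapsule against anti-PD1 from -0.22 to 0.030 (Atf3) and -0.11 to 0.12 (Dusp1).

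The labels do not say that a replicate number marks a shared animal, batch or day, and not every same-numbered pair correlated over 0.1, so the block was not used in the main test. It changed no call among the 10 genes. Deviations of same-numbered lungs from their group means correlated at -0.18 to 0.28, with 3 of 9 pairs over 0.1, and 6 of 9 lungs correlated best with a lung of their own number, a hint of shared variation from the data and not from the design. The unknown depth limits what can be said of precision.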

Other observations

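The genes with the pattern most like the members were found as those with the smallest mean absolute difference from the members' mean pattern over the 9 lungs, in SD units of each gene. Among all tested genes that are no member the median distance was 0.91, and the members themselves lay at 0.39 to 0.71. The 5 nearest named genes were Tmem189 (0.25), Camta2 (0.28), Ppox (0.28), Ksr1 (0.28) and Btg2 (0.30). Btg2, an antiproliferative gene that is itself in the list of other immediate early genes, was at 484, 491 and 606 TPM after nanocapsules, 547, 579 and 514 TPM after anti-PD1, and 622, 702 and 568 TPM after PBS. Ksr1, a scaffold of the RAF and MEK kinases, was at 14.9, 14.7 and 17.3 TPM after nanocapsules, 15.1, 15.7 and 14.1 TPM after anti-PD1, and 17.7, 22.4 and 15.0 TPM after PBS. Both were highest in PBS lung 2. These genes were taken from among all tested genes for their likeness, and nothing else is read from it.

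Of 12 tested genes with AU-rich messengers, which Zfp36 is known to target, limma called 0 in each comparison, and 11 were lower by value in nanocapsule lungs and 5 in anti-PD1 lungs than in PBS lungs, with 0 at an unadjusted p under 0.05 in both and 1 between nanocapsule and anti-PD1 lungs. Ptgs2, the inducible cyclooxygenase, was at 43.7 ± 12.2 TPM after nanocapsules, 55.3 ± 12.7 TPM after anti-PD1 and 63.1 ± 18.6 TPM after PBS (SD, n = 3). Ccl4 was at 68.3 ± 4.00, 87.8 ± 19.2 and 77.5 ± 6.42 TPM in that order (SD, n = 3). Ccl3 was at 123 ± 26.7, 150 ± 17.7 and 126 ± 9.85 TPM (SD, n = 3), so both were higher after anti-PD1 than after PBS by mean. Of 14 feedback genes of NF-kB signalling, 13 and 11 were lower by value than in PBS lungs, with 6 and 2 at an unadjusted p under 0.05 (4 between nanocapsule and anti-PD1 lungs) and 0 called by limma in any comparison. Nfkbie, an inhibitor of NF-kB, was at 13.9 ± 1.95, 17.3 ± 1.28 and 20.3 ± 2.86 TPM in the same order of groups (SD, n = 3). Bcl3, of the same list, was at 121 ± 12.4, 82.4 ± 6.94 and 113 ± 19.6 TPM (SD, n = 3), so its nanocapsule mean was not below that of PBS. Of 23 kinases and factors upstream of immediate early genes, 18 and 17 were lower by value, with 3 and 5 at an unadjusted p under 0.05 (5 between nanocapsule and anti-PD1 lungs) and 0 called by limma in any comparison. Crem, a cAMP-responsive modulator, was at 7.23 ± 1.28, 10.6 ± 2.31 and 11.8 ± 0.905 TPM, and Mapk14, the p38 kinase, at 129 ± 19.5, 106 ± 3.09 and 141 ± 9.21 TPM (SD, n = 3). Of all tested genes, 10.1% were at an unadjusted p under 0.05 between nanocapsule and PBS lungs, 16.5% between anti-PD1 and PBS lungs, and 27.7% between nanocapsule and anti-PD1 lungs. By value 71.2% of all tested genes were lower in nanocapsule than in PBS lungs, and 43.1% in anti-PD1 than in PBS lungs.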
